A study of Mus musculus with 4 samples.

Results

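Ion channel genes of the sodium, potassium, calcium and chloride families were described in mouse tibialis anterior, the mostly fast-twitch muscle at the front of the shin, at postnatal day 21. The 49 genes were chosen by their names and by their level. Of 147 names in the families Kcn, Scn, Cacn and Clcn, with the calcium channel pore gene Cacna1s left out, those with a mean of at least 0.2 RPKM over the 4 libraries were kept. RPKM is a read number divided by gene length and by library depth, so that levels of different genes can be set side by side. The files hold 32868 gene names in all. Of the 98 names under the level, 27 were listed at 0 in all 4 libraries. The genes just inside were Cacna1a (0.225 RPKM), Kcnk5 (0.22 RPKM) and Kcnn3 (0.215 RPKM), and those just outside were Kcna2 (0.19 RPKM), Cacna1c and Kcnj15 (each 0.183 RPKM). All 49 matched protein-coding genes of the GENCODE annotation, 1 of them under another name.

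The study compared mice with Nf1flox/flox/Myf5+, labelled Nf1-KO, with mice carrying Nf1flox/+/Myf5+, labelled Het, all of strain C57BL/6. By its label the Het group too carries a floxed allele and the Myf5 label, which in such crosses stands for a Cre driver of muscle precursors. Each group had 2 libraries. Whether these came from separate animals is not given in the labels, so p-values measure the spread between these libraries, which may be technical. Nf1 encodes neurofibromin, which turns Ras signalling off, and the series' title concerns its part in muscle growth and metabolism after birth.

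Muscle fibres carry action potentials along their surface and into the transverse tubules. Voltage-gated sodium channels raise the membrane voltage, voltage-gated potassium channels restore it, and the chloride channel ClC-1 and inward rectifier potassium channels hold the fibre at rest. In the tubules a calcium channel of several subunits senses the voltage and opens the calcium release channel of the sarcoplasmic reticulum. Fast and slow fibres differ in their sets of these channels.

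Estimated depth per library ran from 36500000 to 58000000 reads. Nf1 itself held 1.09 and 1.01 RPKM in Het and 0.89 and 0.85 RPKM in Nf1-KO (log2 fold change -0.18, limma adjusted p 0.042). Among 12050 genes tested, 45.1% passed a limma adjusted p of 0.05, 22.2% higher and 22.9% lower in Nf1-KO. Markers of skeletal fibres (6 of 8 lower, 2 higher) were abundant, with sums of 57370 to 57662 RPKM in Het and 47810 to 48115 in Nf1-KO, a ratio of 0.834. The fast fibre list (6 of 6 lower) summed to 30125 to 30281 RPKM in Het and 20224 to 20371 in Nf1-KO, and the slow and oxidative list (7 of 8 higher) to 503 to 525 and 963 to 986 RPKM. Most of that last sum was Myh2, at 448 and 471 RPKM in Het and 851 and 829 RPKM in Nf1-KO. The slow myosin gene Myh7 was the gene of that list not called higher. It held 1.53 and 1.66 RPKM in Het and 1.47 and 1.36 RPKM in Nf1-KO (limma adjusted p 0.070). Fast myosin genes moved in both directions. Myh4, counted in the skeletal and the fast list, held 6767 and 7015 RPKM in Het and 3508 and 3428 RPKM in Nf1-KO. Myh1, counted in the skeletal list only, was called higher, at 2354 and 2443 RPKM in Het and 3712 and 3644 RPKM in Nf1-KO (limma adjusted p 2.9e-05). Summed Schwann cell markers (8 of 8 higher) were 16.1 to 16.6 and 35.6 to 37.4 RPKM, and immune markers (7 of 10 higher, Adgre1 listed at 0) 15.5 to 16.0 and 38.7 to 39.0 RPKM. Fibroblast markers (5 of 6 higher) summed to 91.3 to 93.9 RPKM in Het and 135 to 136 in Nf1-KO, endothelial markers (3 of 8 higher, 2 lower) to 94.0 to 94.8 and 104 to 105 RPKM, and heart markers (2 of 4 higher) to 2.54 to 2.62 and 7.14 to 7.73 RPKM. The part of fibre type or of these other cells in the channel values was not tested. In whole muscle, fewer cells of a type and less RNA per cell cannot be told apart.

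The channel genes differed widely in level, with 16 of at least 10 RPKM, 13 between 1 and 10 RPKM and 20 under 1 RPKM. Auxiliary subunits of the sodium and calcium channels were among the highest, with Scn4b at 185 RPKM and Cacng1 at 110 RPKM over the 4 libraries. They were followed by the sodium pore Scn4a (89.0 RPKM), Cacng6 (74.9 RPKM) and the potassium pore Kcna7 (74.5 RPKM). Scn4a was above Cacng6 and Kcna7 in each library, while the order of Cacng6 and Kcna7 differed between libraries. Next came Kcnc4, Cacnb1, Cacna2d1, Clcn1 and Kcnj11, between 52.3 and 36.5 RPKM. In each library Cacnb1 was above Cacna2d1, and Cacna2d1 was above Clcn1 and Kcnj11. The order of Clcn1 and Kcnj11 differed between libraries. After Kcnc1 (18.9 RPKM) came Kcnj12 at 14.9 RPKM.

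**Figure D1:**
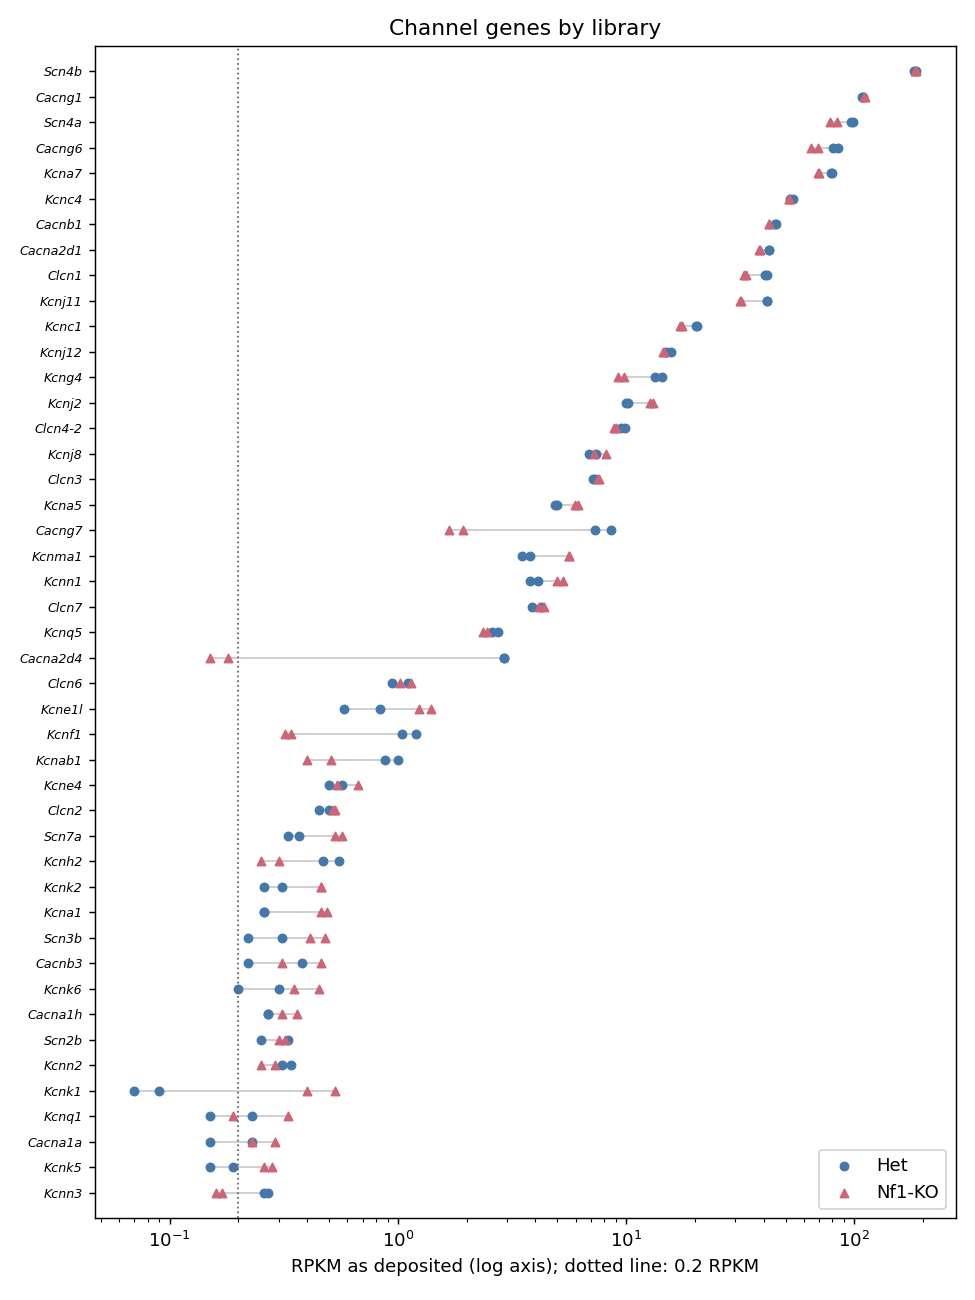
Level of 45 of the channel genes in each library, as RPKM on a log axis, with circles for the 2 Het and triangles for the 2 Nf1-KO libraries. The order runs from Scn4b at 185 RPKM to Kcnn3 at 0.215 RPKM, and the gaps between groups are widest for Cacna2d4 (17.6 times higher in Het) and Kcnk1 (5.81 times higher in Nf1-KO). Both genes entered the list through the group where they are higher. Their means in the other group were under 0.2 RPKM, at 0.165 RPKM in Nf1-KO for Cacna2d4 and 0.08 RPKM in Het for Kcnk1.

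Across the 49 genes, 31 passed a limma adjusted p of 0.05 (background 45.1%), 22 lower (background 22.9%) and 9 higher (background 22.2%) in Nf1-KO. The median log2 fold change was -0.07, against 0.00 over all genes tested (-7.3e-05). The lower calls lay among the abundant genes: of the 16 channel genes of at least 10 RPKM, 13 were lower and 2 higher, where 33.6% and 34.9% of all genes at that level were (68.4% in either direction). Of the 13 between 1 and 10 RPKM, 5 were lower and 4 higher (background 23.5% and 19.7%, 43.2% in either direction). Of the 20 channel genes under 1 RPKM, 4 were lower and 3 higher (background 11.1% and 14.4%, 25.5% in either direction). Without scaling between libraries, 17 channel genes were called lower and 10 higher, with 15.6% and 31.8% of all genes. For 6 genes the mean of 1 group was under 0.2 RPKM, so that they entered through the other group. Among the other 43, 21 were lower and 8 higher. Leaving out any 1 library lowered the number of higher calls. Such fits have 1 sample in a group, and the share of all genes that they call is not given here. The 2 groups did not overlap in 40 of the 49 genes after scaling (background 74.0%), in 26 with Nf1-KO lower (background 36.9%) and in 14 with Nf1-KO higher (background 37.1%).

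**Figure D2:**
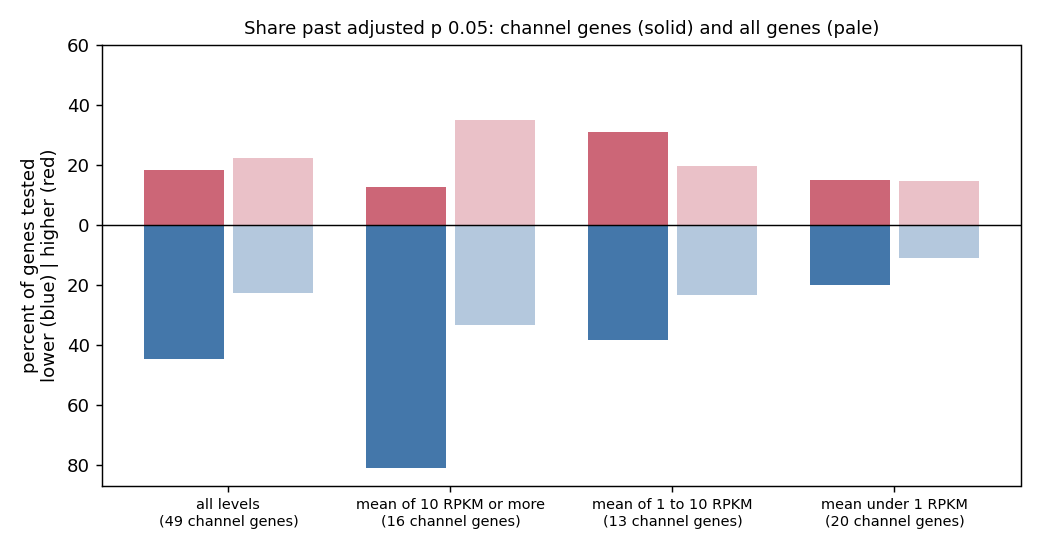
Percent of genes past a limma adjusted p of 0.05, higher above the line and lower below it, for channel genes (solid) and for all genes tested (pale), at all levels and in 3 classes of mean RPKM. In the class of 10 RPKM or more, 13 of 16 channel genes are lower, against 33.6% of all genes.

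Sodium channels start the action potential. Scn4a (chromosome 11, 106318592 to 106353288, GRCm38) encodes the pore of the adult muscle channel and made up 99.6% of the summed sodium pore RPKM in Het. Its level was 96.2 and 98.2 RPKM in Het and 83.6 and 78.1 RPKM in Nf1-KO, and the groups did not overlap. It fell by 0.36 on the log2 scale (SE 0.036, limma adjusted p 6.9e-04), from 97.2 ± 1.39 to 80.9 ± 3.84 RPKM (SD, n = 2). Scn7a, an atypical sodium channel gene known from glia and other non-muscle cells, was at 0.33 and 0.37 RPKM in Het and 0.53 and 0.57 RPKM in Nf1-KO. It rose by 0.17 (limma adjusted p 0.049), a call at the threshold that was lost when any 1 library was left out (limma adjusted p 0.076 to 0.16). The Schwann cell markers moved the same way, and their part in the result was not tested.

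The beta subunits tune gating and place the pore in the membrane. Scn4b was close in all libraries, at 187 and 183 RPKM in Het and 187 and 185 RPKM in Nf1-KO as deposited. Its log2 fold change was -0.09 after scaling (limma adjusted p 0.014) and 0.01 without scaling (limma adjusted p 0.71), so the direction rests on the scaling. Leaving out Het replicate 1 or either Nf1-KO replicate also ended the call, with limma adjusted p up to 0.091. The 2 low beta subunits did not pass the threshold: Scn3b was at 0.265 ± 0.064 and 0.445 ± 0.049 RPKM, and Scn2b at 0.29 ± 0.057 and 0.31 ± 0.014 RPKM (SD, n = 2).

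The voltage sensor of the tubules is built from a pore, Cacna1s, and the auxiliary subunits Cacnb1, Cacna2d1 and Cacng1. Cacna1s, which was not among the 49, held 247 ± 1.19 and 236 ± 3.67 RPKM (SD, n = 2), with a log2 fold change of -0.16 (limma adjusted p 0.0015), which was -0.06 without scaling (limma adjusted p 0.043). Cacnb1, the intracellular beta subunit that carries the pore to the tubule, was at 45.5 and 44.8 RPKM in Het and 42.3 and 42.5 RPKM in Nf1-KO. Its groups did not overlap, and it fell by 0.19 (SE 0.023, limma adjusted p 0.0016). Without scaling its log2 fold change was -0.09 (limma adjusted p 0.024). Cacna2d1, the extracellular alpha2delta subunit, went from 42.1 and 42.4 RPKM to 38.3 and 38.5 RPKM, a fall by 0.23 (SE 0.023, limma adjusted p 6.8e-04), with -0.13 when not scaled (limma adjusted p 0.0054). Cacng1, the gamma subunit of skeletal muscle, had 108 and 110 RPKM in Het and 112 and 110 RPKM in Nf1-KO. Its log2 fold change was -0.07 with scaling and 0.03 without, and neither passed (limma adjusted p 0.052 and 0.25).

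Other calcium channel subunits fell further. Cacng6, a gamma subunit close to Cacng1, held 80.8 and 84.6 RPKM in Het and 69.2 and 64.9 RPKM in Nf1-KO, a fall by 0.40 (SE 0.039, limma adjusted p 6.6e-04). Its neighbour on chromosome 7, Cacng7 (3332955 to 3368221), is a gamma subunit known mainly from brain, where it also acts on glutamate receptors. Cacng7 was at 7.31 and 8.57 RPKM in Het and 1.68 and 1.92 RPKM in Nf1-KO. The groups lay far apart, with the Het mean 4.41 times the Nf1-KO mean, and the log2 fold change was -1.75 (SE 0.082, limma adjusted p 4e-05). Cacng8, the third gene of that cluster, was listed at 0 in every library. Neuron markers were near 0 throughout, with a sum over 6 genes of 0.08 to 0.21 RPKM and Snap25 and Syt1 listed at 0.

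Cacna2d4 (chromosome 6, 119236526 to 119352407), an alpha2delta subunit best known from photoreceptors, showed the largest fall of all 49 genes. Both Het libraries had 2.9 RPKM, while those of Nf1-KO had 0.15 and 0.18 RPKM. The Het mean was 17.6 times the Nf1-KO mean. With its Nf1-KO mean under 0.2 RPKM, Cacna2d4 entered the list through the Het libraries. On the scale with a pseudocount of 1 RPKM its log2 fold change was -1.79 (SE 0.053, limma adjusted p 7.9e-06), and with a pseudocount of 0.1 RPKM it was -3.58. In the authors' deposited table it was -4.25, on a mean of 527 normalized reads. No exon of another annotated gene overlaps those of Cacna2d4 or Cacng7.

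The low calcium channel genes did not pass the threshold. Cacnb3, a beta subunit of other tissues, ranged from 0.22 to 0.46 RPKM with overlapping groups (limma adjusted p 0.57). The pores Cacna1h (0.27 ± 0.00 and 0.335 ± 0.035 RPKM) and Cacna1a (0.19 ± 0.057 and 0.26 ± 0.042 RPKM) did not pass (limma adjusted p 0.50 and 0.44; SD, n = 2). Of the 7 calcium channel auxiliary subunits, 5 were lower (background 22.9%) and 0 higher (background 22.2%) by limma, with a median log2 fold change of -0.23. None was called higher in the authors' deposited table (background 15.0%), where Cacnb3 had a log2 fold change of 0.26 (adjusted p 0.72). That table describes the same comparison, so it is no separate support, and 7 genes are few for such a count.

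Chloride conductance sets the resting stability of fibres. Clcn1 (chromosome 6, 42286685 to 42315756) encodes ClC-1, the channel that carries most of it, and some of its exons overlap those of Fam131b. Its level was 40.5 and 41.4 RPKM in Het and 33.5 and 32.7 RPKM in Nf1-KO, with no overlap. It fell by 0.40 on the log2 scale (SE 0.027, limma adjusted p 1.6e-04), from 41.0 ± 0.636 to 33.1 ± 0.502 RPKM (SD, n = 2). Clcn4-2, an exchanger of intracellular vesicles, fell by 0.20 (limma adjusted p 0.0075). That call was lost without scaling (-0.11, limma adjusted p 0.054) and without Nf1-KO replicate 2 (limma adjusted p 0.061). The 4 other CLC genes, which act in endosomes and lysosomes or in other tissues, had log2 fold changes between -0.02 and 0.02. Among them Clcn7, the lysosomal exchanger that osteoclasts also need, was at 4.24 and 3.85 RPKM in Het and 4.38 and 4.15 RPKM in Nf1-KO (limma adjusted p 0.83). The osteoclast and bone list summed to 1.44 to 1.49 RPKM in Het and 28.8 to 29.0 RPKM in Nf1-KO (5 of 6 higher).

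Inward rectifiers moved in both directions. Kcnj11 (chromosome 7, 46093953 to 46100764), the pore of the ATP-sensitive potassium channel of muscle, couples membrane voltage to the energy state. It was very even within groups, at 41.3 and 41.3 RPKM in Het and 31.8 and 31.7 RPKM in Nf1-KO. It fell by 0.47 (SE 0.024, limma adjusted p 5.1e-05). Abcc9, a regulatory subunit of these channels, fell by 0.30, from 32.2 ± 0.212 to 27.7 ± 0.856 RPKM (SD, n = 2; limma adjusted p 7.6e-04). Kcnj8, the ATP-sensitive pore of vessels and pericytes, ranged from 6.85 to 8.16 RPKM with overlapping groups and a log2 fold change of 0.01 (limma adjusted p 0.93). Summed vascular smooth muscle and pericyte markers were 98.8 to 101 RPKM in Het and 123 to 124 RPKM in Nf1-KO (3 of 8 higher, 2 lower). Most of that sum was Rgs5, at 52.5 and 54.2 RPKM in Het and 70.6 and 71.2 RPKM in Nf1-KO.

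The classical inward rectifiers that hold the resting potential split. Kcnj2 rose by 0.24 (SE 0.035, limma adjusted p 0.0030), from 10.2 and 9.96 RPKM to 12.7 and 13.2 RPKM. Kcnj12, which can share a channel with Kcnj2, was at 15.7 and 14.9 RPKM in Het and 14.5 and 14.7 RPKM in Nf1-KO. Its log2 fold change was -0.16 (limma adjusted p 0.014), but the groups lay close together. The call ended without scaling (-0.07, limma adjusted p 0.18), and without Het replicate 1 or either Nf1-KO replicate (limma adjusted p up to 0.090).

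Voltage-gated potassium pores repolarise the fibre, and 12 of the 13 passed the threshold (background 45.1%), 9 lower (background 22.9%) and 3 higher (background 22.2%). Without scaling 7 were lower (background 15.6%) and 3 higher (background 31.8%). Kcna7, the most abundant, is largely a muscle gene and went from 79.0 and 80.1 RPKM to 69.1 and 70.0 RPKM, a fall by 0.29 (SE 0.022, limma adjusted p 2.2e-04), with -0.19 when not scaled (limma adjusted p 0.0012). The Kcnc genes encode channels that open at high voltage and close fast. Kcnc1 went from 20.3 and 20.5 RPKM to 17.6 and 17.2 RPKM, a fall by 0.31 (SE 0.030, limma adjusted p 5.5e-04). Kcnc4 held 53.7 and 52.4 RPKM in Het and 51.5 and 51.7 RPKM in Nf1-KO, with a log2 fold change of -0.14 (limma adjusted p 0.0058), and without scaling it did not pass (-0.04, limma adjusted p 0.22). Both genes were lower in each Nf1-KO library than in either Het library.

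A further pair comprised Kcng4 and Kcnf1, which form no channel alone but join pore-forming partners and modify them. Kcng4 went from 13.4 and 14.4 RPKM to 9.17 and 9.76 RPKM, a fall by 0.60 (SE 0.048, limma adjusted p 2.9e-04). Kcnf1 had 1.04 and 1.2 RPKM in Het and 0.32 and 0.34 RPKM in Nf1-KO, a fall by 0.71 (SE 0.062, limma adjusted p 3.9e-04). In each of the 2 genes both Nf1-KO libraries lay under both Het libraries. The ratio of Nf1-KO to Het means was 0.682 for Kcng4 and 0.295 for Kcnf1.

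Kcnq5, a slowly opening potassium channel, fell by 0.18 (limma adjusted p 0.039), from 2.67 ± 0.113 to 2.41 ± 0.071 RPKM (SD, n = 2). The call for Kcnq5 was lost without scaling (-0.11, limma adjusted p 0.15) and when any 1 library was left out (limma adjusted p 0.070 to 0.18). Kcnq1 ranged from 0.15 to 0.33 RPKM and did not pass (limma adjusted p 0.53).

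Among the remaining pores of this class, Kcna5, a delayed rectifier, rose by 0.17 (limma adjusted p 0.018), from 4.92 ± 0.064 to 6.07 ± 0.113 RPKM (SD, n = 2). Kcna1, known from nerve fibres, rose by 0.20 (limma adjusted p 0.024), from 0.26 RPKM in both Het libraries to 0.46 and 0.49 RPKM. Kcnh2, a channel with a known role in the heart, fell by 0.27 (limma adjusted p 0.013), from 0.51 ± 0.057 to 0.275 ± 0.035 RPKM. The calls of Kcna5 and Kcna1 were lost without any 1 library (limma adjusted p up to 0.10 and 0.093), and that of Kcnh2 without Het replicate 1 or either Nf1-KO replicate (up to 0.079). Schwann cell markers rose beside Kcna1, and their part in its rise was not tested.

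Auxiliary potassium channel subunits were all near or under 1 RPKM. Kcnab1, a cytoplasmic beta subunit of Kcna channels, held 0.88 and 1 RPKM in Het and 0.4 and 0.51 RPKM in Nf1-KO. It fell by 0.45 (SE 0.066, limma adjusted p 0.0029). Kcne1l, a small single-pass subunit, was uneven within Het, at 0.83 and 0.58 RPKM, and held 1.24 and 1.39 RPKM in Nf1-KO. It rose by 0.40 (SE 0.086, limma adjusted p 0.013), a call lost without either Nf1-KO replicate (limma adjusted p up to 0.11). In the authors' deposited table its adjusted p was 0.07. Kcne4 ranged from 0.5 to 0.67 RPKM with overlapping groups (limma adjusted p 0.75).

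Calcium-activated potassium channels link calcium to repolarisation. Kcnma1 (chromosome 14, 23289431 to 24014491), the large-conductance channel, held 3.49 and 3.8 RPKM in Het and 5.59 and 5.63 RPKM in Nf1-KO. It rose by 0.43 (SE 0.051, limma adjusted p 0.0013), and the groups did not overlap. Vascular smooth muscle also expresses Kcnma1, and its markers moved in both directions. Acta2 was called higher and Tagln lower, while Myh11 and Cnn1 did not pass (limma adjusted p 0.069 and 0.23). The part of smooth muscle in the rise of Kcnma1 was not tested. Kcnmb1, the beta subunit of the large-conductance channel in smooth muscle, was under the level for testing. It held 0.1 and 0.13 RPKM in Het and 0.2 and 0.21 RPKM in Nf1-KO. Kcnn1, a small-conductance channel, rose by 0.22 (limma adjusted p 0.018), from 3.96 ± 0.226 to 5.13 ± 0.205 RPKM (SD, n = 2). Its call was lost without Het replicate 2 or either Nf1-KO replicate (limma adjusted p up to 0.12). Kcnn2 and Kcnn3 did not pass (log2 fold changes -0.08 and -0.14, limma adjusted p 0.26 and 0.079). Kcnn3, the form known to appear in denervated fibres, was at 0.27 and 0.26 RPKM in Het and 0.16 and 0.17 RPKM in Nf1-KO. The authors' deposited table gave Kcnn3 an adjusted p of 0.045.

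Two-pore-domain channels pass background potassium current, and all 4 had low levels. Kcnk1 (chromosome 8, 125995170 to 126030685) held 0.09 and 0.07 RPKM in Het and 0.4 and 0.53 RPKM in Nf1-KO, so that it entered the list through the Nf1-KO libraries. Its Nf1-KO mean was 5.81 times its Het mean. The log2 fold change was 0.42 with a pseudocount of 1 RPKM (SE 0.064, limma adjusted p 0.0034) and 1.58 with 0.1 RPKM. The authors' deposited table gave 2.37, on a mean of 29.3 normalized reads, the fewest of the 49 genes. Kcnk2, Kcnk6 and Kcnk5 had positive log2 fold changes of 0.16, 0.14 and 0.10 that did not pass (limma adjusted p 0.060, 0.15 and 0.18).

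**Figure D3:**
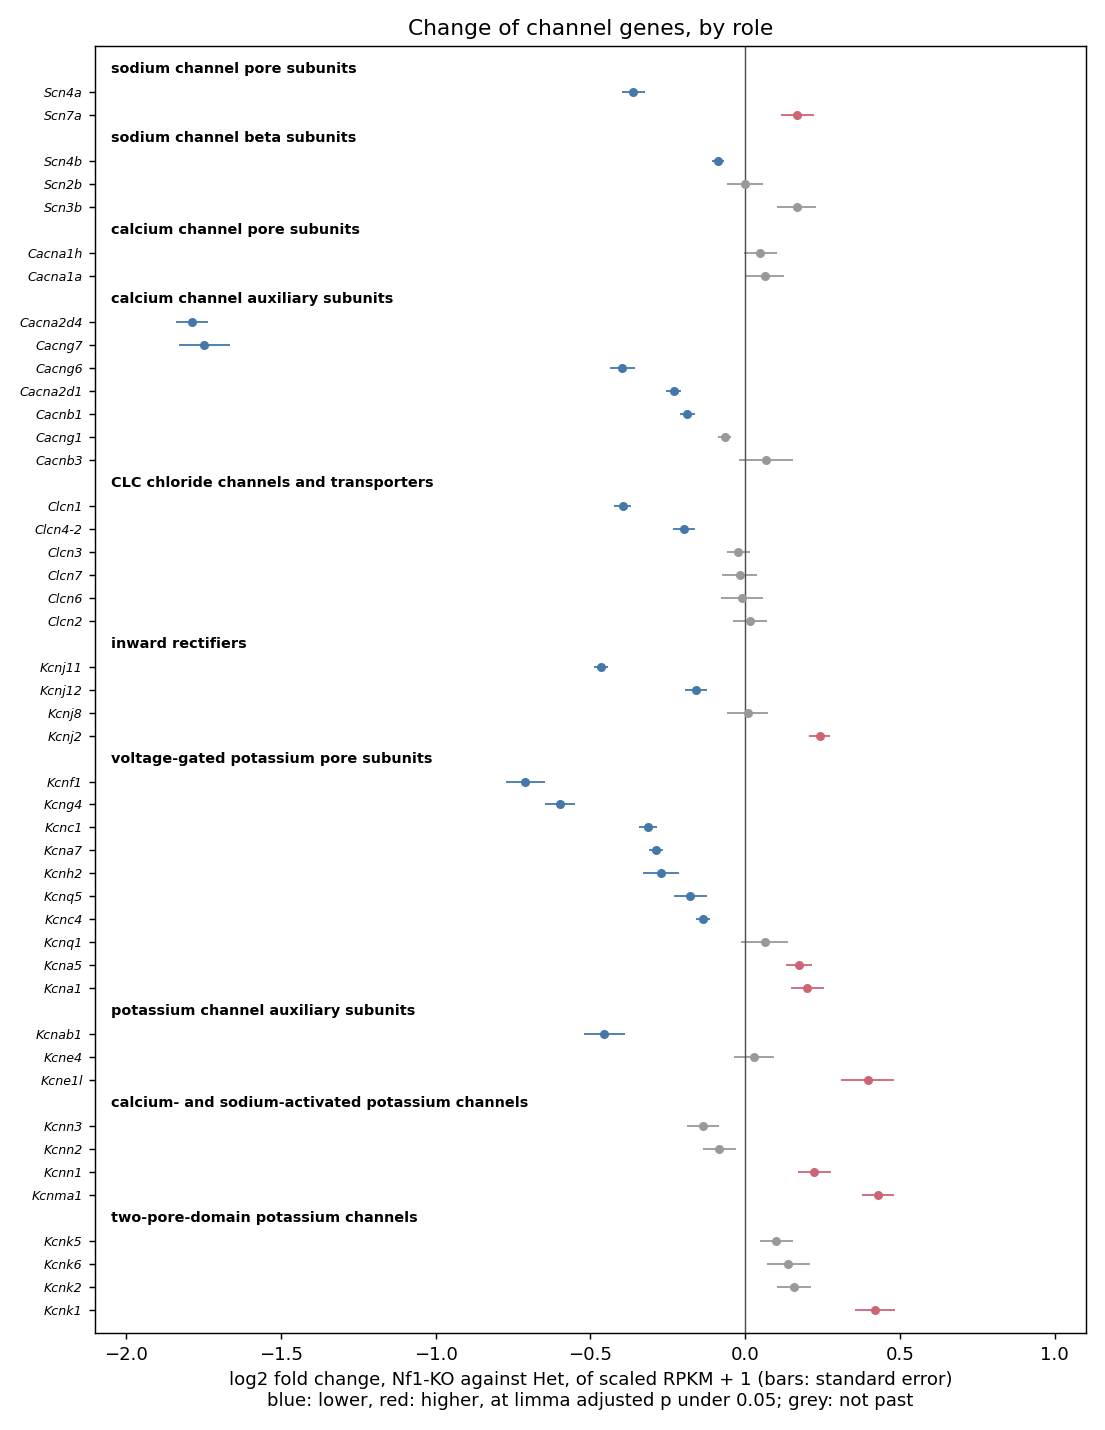
Log2 fold change of scaled RPKM + 1, Nf1-KO against Het, with its standard error, for 45 of the channel genes grouped by role; blue is lower and red higher at a limma adjusted p under 0.05, grey did not pass. Cacna2d4 at -1.79 and Cacng7 at -1.75 stand apart on the left.

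Changes of over 0.5 on the log2 scale were called in 6 channel genes (12.2%, with 8.73% of all genes tested), 5 lower and 1 higher. Among them were Cacna2d4, Cacng7, Kcnf1 and Kcng4. Most of the other calls were small on this scale, and the median absolute log2 fold change of the 49 genes was 0.19, against 0.15 for all genes. With its pseudocount of 1 RPKM the scale understates changes of low genes. Kcnk1, at a log2 fold change of 0.42, had a Nf1-KO mean 5.81 times its Het mean.

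**Figure D4:**
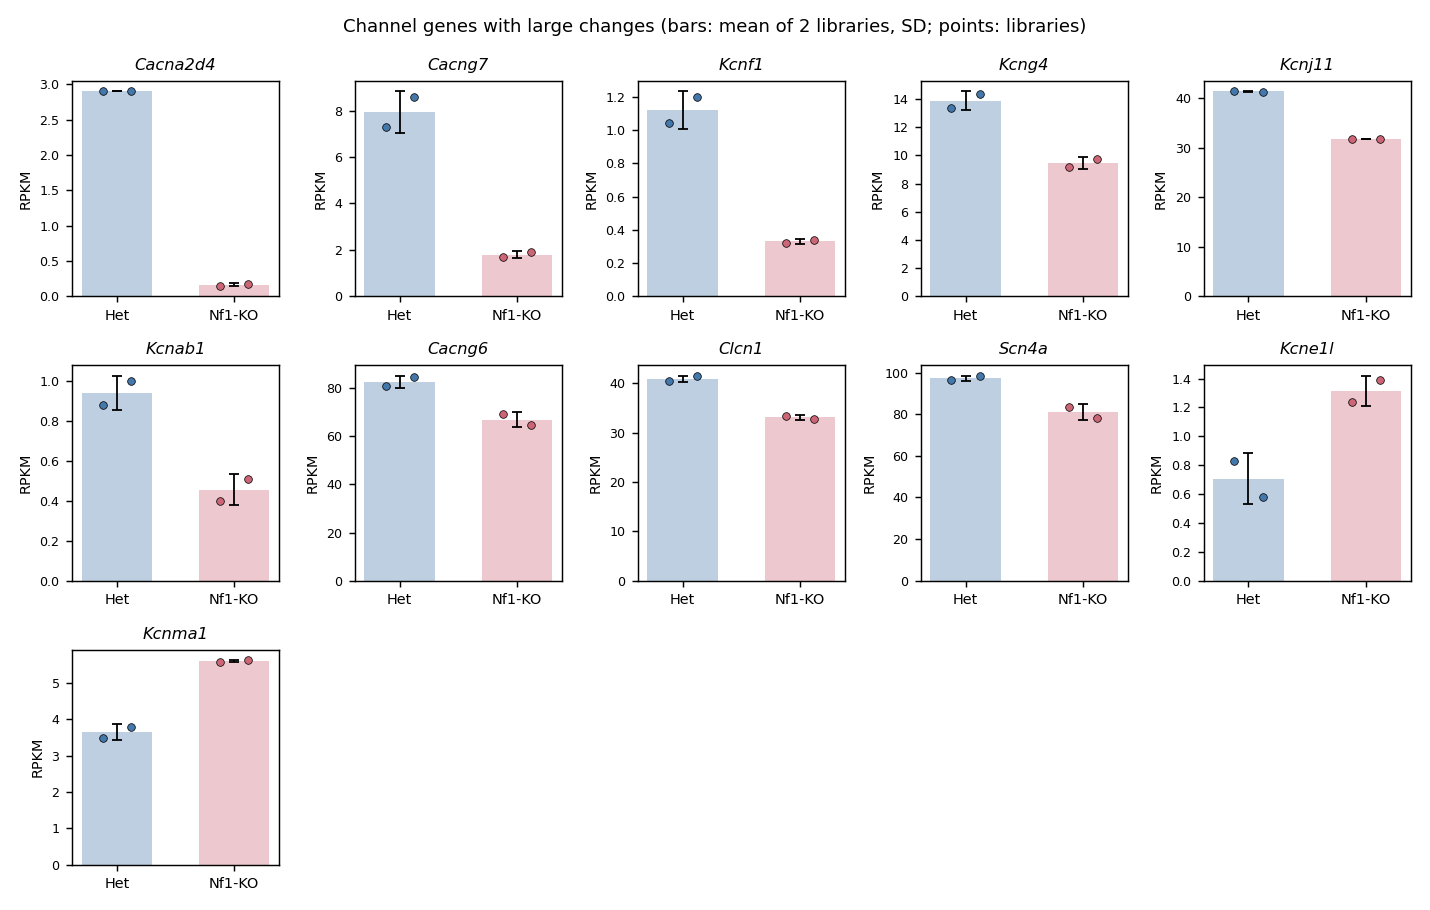
RPKM as deposited of 11 of the channel genes with the largest called changes among those of at least 0.5 RPKM; bars are means of 2 libraries with their SD and points are libraries. In 9 of the 11 panels the Nf1-KO libraries lie under the Het libraries, and in Kcne1l and Kcnma1 they lie above. The genes were picked for called changes, so the separation of the groups follows from that choice. After scaling, the groups did not overlap in 74.0% of all genes tested.

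Promoter sequence is shown for genes that fell together, to let the windows be compared. RefSeq windows were found for 35 of the 49 genes. The 4 below are the most changed of the called genes of at least 0.5 RPKM that had 1 window free of annotated exons. Each line gives 250 bases directly before the start site, in build GRCm38.p6. The window of Cacng7 is chr7:3332575-3332824 on the plus strand, and that of Clcn1 is chr6:42286435-42286684 on the plus strand. Kcnf1 (chr12:17176889-17177138) and Kcng4 (chr8:119635681-119635930) lie on the minus strand. Capitals mark matches on either strand to the E-box CANNTG, the GC box GGGCGG, the TATA box TATAAA, the AP-1 site TGANTCA or the MEF2 site.
Cacng7: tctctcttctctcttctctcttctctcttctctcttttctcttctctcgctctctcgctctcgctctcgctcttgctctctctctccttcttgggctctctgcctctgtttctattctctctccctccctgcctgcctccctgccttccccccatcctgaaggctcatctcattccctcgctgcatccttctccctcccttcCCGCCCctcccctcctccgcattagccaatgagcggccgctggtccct
Kcnf1: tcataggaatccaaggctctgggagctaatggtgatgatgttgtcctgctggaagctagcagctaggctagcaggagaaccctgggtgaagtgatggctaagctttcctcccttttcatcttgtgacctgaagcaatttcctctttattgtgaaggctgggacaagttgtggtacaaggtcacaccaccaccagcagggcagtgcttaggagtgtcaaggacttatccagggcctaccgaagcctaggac
Kcng4: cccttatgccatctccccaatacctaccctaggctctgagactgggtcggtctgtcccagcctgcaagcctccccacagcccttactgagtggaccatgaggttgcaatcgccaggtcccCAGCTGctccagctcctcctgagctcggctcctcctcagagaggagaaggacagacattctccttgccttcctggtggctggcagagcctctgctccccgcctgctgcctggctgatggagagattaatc
Clcn1: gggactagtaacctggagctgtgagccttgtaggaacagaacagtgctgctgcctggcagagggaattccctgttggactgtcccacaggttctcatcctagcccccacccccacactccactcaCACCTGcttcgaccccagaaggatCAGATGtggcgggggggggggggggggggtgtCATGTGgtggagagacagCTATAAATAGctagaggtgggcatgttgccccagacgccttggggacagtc

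No motif searched was found in all 4 windows. Clcn1 held 3 E-boxes and, from base -51 to base -42 before the start, 1 MEF2 match that overlaps its TATA box. Of all 32851 RefSeq windows of that length, 66.2% held an E-box, 2.92% a MEF2 match and 12.4% a TATA box. Kcng4 held 1 E-box, of the form CAGCTG, which 13.0% of all windows held. Cacng7 held 1 GC box (32.7% of all windows), and Kcnf1 held no match to these motifs. None of the 4 windows held an AP-1 match (6.75% of all windows). GC content ran from 51.2% in Kcnf1 to 60.4% in Kcng4, where the median of all windows was 52.4%. A match describes letters in a window and no binding was measured.

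The authors' deposited table held all 49 genes and called 30 at an adjusted p under 0.05 (background 31.7%), 23 lower (background 16.6%) and 7 higher (background 15.0%). Of these, 29 were also called here, with the same sign in each. Kcna5 and Kcne1l were called here only, and Kcnn3 only in the authors' deposited table. The largest fall there was also that of Cacna2d4, and large falls were also listed for Cacng7 (-2.25) and Kcnf1 (-1.87). The mean number of normalized reads in the authors' deposited table ran from 29.3 (Kcnk1) to 37354 (Scn4b).

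Partners of the channels were described from a list of 40 genes outside the 49, Cacna1s among them, of which 26 reached the level for testing. Of these, 20 passed (background 45.1%), 13 lower (background 22.9%) and 7 higher (background 22.2%), with a median log2 fold change of -0.12. Without scaling 10 were lower (background 15.6%) and 9 higher (background 31.8%). Several genes of the contact between tubule and sarcoplasmic reticulum were lower. Stac3, which ties the voltage sensor to the release channel, went from 81.5 ± 0.771 to 71.4 ± 0.106 RPKM (SD, n = 2), a fall by 0.29 (limma adjusted p 2.0e-04), and without scaling its log2 fold change was -0.19. Ryr1, the release channel, fell by 0.28 and Jph1 by 0.15 (limma adjusted p 0.0017 and 0.0035), and without scaling their log2 fold changes were -0.19 and -0.05, of which that of Jph1 did not pass (limma adjusted p 0.11). Jph2, which holds the membranes of the junction together, fell further, by 0.76 (SE 0.022, limma adjusted p 7.7e-06), from 196 and 190.0 RPKM to 122 and 121 RPKM.

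Proteins that anchor or turn over sodium channels differed in direction. Sntb1, a syntrophin of the dystrophin complex, rose by 0.74 (limma adjusted p 1.7e-04), and Ank3, an ankyrin that holds sodium channels, fell by 0.26 (limma adjusted p 0.0039). Of the ubiquitin ligases that remove channels from the membrane, Nedd4 rose by 0.13 and Nedd4l fell by 0.46 (limma adjusted p 0.0057 and 0.0011), with 0.23 for Nedd4 when not scaled. The splicing factors Mbnl1 and Celf1, known to act on the Clcn1 transcript, fell by 0.19 and 0.46 (limma adjusted p 0.011 and 5.4e-04), and Mbnl1 did not pass without scaling (-0.10, limma adjusted p 0.083). Rrad, an inhibitor of calcium channels, was at 0.33 and 0.28 RPKM in Het and 0.63 and 0.81 RPKM in Nf1-KO and rose by 0.36 (limma adjusted p 0.0082). Lrrc52, a gamma subunit of large-conductance potassium channels, held 0.87 and 0.51 RPKM in Het and 3.61 and 2.36 RPKM in Nf1-KO, a rise by 1.17 (limma adjusted p 0.0030). Its libraries were uneven within both groups.

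Of 46 other ion transport genes of the membrane, 32 were tested, and 9 were lower (background 22.9%) and 8 higher (background 22.2%), with a median log2 fold change of 0.00 (0.0046). Without scaling 13 of them were higher (background 31.8%) and 7 lower (background 15.6%). Some of the largest changes were in the sodium pump that restores the ion gradients. Atp1b2, a beta subunit, went from 65.5 and 63.4 RPKM to 27.0 and 26.4 RPKM, a fall by 1.34 (SE 0.028, limma adjusted p 2.7e-06). Fxyd6, a small pump regulator, rose by 1.35 (SE 0.025, limma adjusted p 1.8e-06), from 22.5 and 22.9 RPKM to 63.8 and 63.3 RPKM.

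Summed levels were compared by role, with no test. Summed RPKM of voltage-gated potassium pores was 189 and 191 in Het and 177 and 178 in Nf1-KO, a ratio of 0.930 with values as deposited. The same ratio was 0.835 for sodium pores, 0.963 for sodium beta subunits, 0.901 for calcium channel auxiliary subunits, 0.875 for CLC genes and 0.907 for inward rectifiers. It was 1.29 for calcium channel pores and 1.09 for potassium channel auxiliary subunits, on sums of 0.46 and 2.18 RPKM in Het. Calcium-activated potassium channels had a ratio of 1.36, on sums of 8.19 and 8.2 RPKM in Het, and two-pore-domain channels 2.03, on sums of 0.79 and 0.78 RPKM. Single genes weigh on these sums: Kcna7 made up 41.8% of the voltage-gated potassium sum in Het and 39.3% in Nf1-KO.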

How the data were processed

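RNA of tibialis anterior was sequenced in 2 Het and 2 Nf1-KO libraries, made with a TruSeq kit from total RNA per the labels' protocols. STAR 2.4.2a, DESeq2 and mouse build mm9 are named in the submitters' processing notes; counting program, annotation and strand are not given in the sources used here. The authors deposited 1 RPKM value per gene and library, with 2 decimals; the unit was read from the values, which sum to 532146 to 546969 per library and, with the authors' normalized counts, scale with transcript length (log-log slope 0.956 over 6922 genes). The authors' deposited table gives, per the file headers, a mean signal of normalized counts, a log2 fold change, its standard error, a test score (their quotient), the p-value and the value adjusted from it; its 13964 rows with a gene name were used.

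Of 34682 rows, 33 with a number as name were dropped and 1781 copies reduced to the highest row per name. Genes with a mean of at least 0.2 RPKM were scaled by a trimmed mean of log ratios (30% and 5% trimmed; factors 0.967, 0.966, 1.03 and 1.04) and tested with limma 3.58.1 (R 4.3.3), with a variance trend, on log2(RPKM + 1). This scale understates changes of low genes. Benjamini-Hochberg adjustment of two-sided p-values covered all 12050 genes; the threshold was 0.05. The code was tested on simulated data. Means and SD are of values as deposited. An exact permutation test of 2 against 2 cannot go below 0.333. Depth (36500000 and 58000000 reads for Het, 47000000 and 50700000 for Nf1-KO) is an estimate, from the size of 1 read in genes under 400 bases. A value of 0 is reported only as listed. Positions are GRCm38 (GENCODE M21), not the authors' build; exons of 16 of the 49 genes overlap other genes, and reads there may belong to either gene.

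The genes, lists and alternatives were chosen with earlier results of these data known. Genes named in full were the 12 with the highest mean, the 14 with the largest called change among those of at least 0.5 RPKM, and the 2 highest of each of 10 roles (30 in all, some of which are not reported here); others were named after their values were seen. The labels give no batch. Alternatives were the pseudocount, filters, scaling, variance model, copies, replicate block, leaving out each library and the threshold.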

Additional observations from a re-analysis of the deposited data

How the results depend on the processing

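Of 603 log2 fold changes of single channel genes under 13 alternatives, 553 stayed on the same side of the threshold, with the sign compared only for called values, while 43 lost their call, 31 of them when a library was left out, and 6 gained one. The call of 20 of the 31 genes held under each alternative that tested them, 16 lower and 4 higher. Scn4b turned to 0.0094 without scaling. The 22 lower genes ran from 17 to 21 and the 9 higher genes from 4 to 6 when a library was left out, with 5 without Het replicate 2 and 4 without either Nf1-KO replicate; these fits have 1 sample in a group, which is assumed to vary like the others. At a limma adjusted p under 0.01, 18 genes were lower and 4 higher. The share of all genes past that threshold is not given here. Whether the replicate numbers pair the libraries is not given in the labels. Libraries of the same number did not deviate together (correlation of deviations -0.0022), which cannot settle it with 2 libraries per group. A fit with that number as a block (replicate block) gave 8 higher and 21 lower genes, and the share of all genes that it calls is not given here. In the block fit the limma adjusted p of Kcnq5 became 0.065 and that of Scn7a 0.068. The count tests planned for count files were not run, since the files hold RPKM. The depth limits genes under 0.5 RPKM most, since values have 2 decimals.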
